A study of Rattus norvegicus with 108 samples.

Results

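The 8 genes described here carry the best known housekeeping tasks of the astrocyte: Slc1a2 (GLT-1) and Slc1a3 (GLAST), the plasma membrane transporters that take up synaptic glutamate; Glul, glutamine synthetase; Gja1, the gap junction protein connexin 43; Aqp4, the water channel of astrocyte endfeet; Ntsr2, a neurotensin receptor; Aldoc, the glycolytic enzyme aldolase C; and Gfap, the intermediate filament protein of mature and reactive astrocytes. They were chosen by symbol from the 19127 genes of the 2 count matrices by a rule that used no measured value. Earlier results of these data were known when they were chosen. The 8 genes were followed across annotated cell types, across regions and across treatment. The cells came from male Long-Evans rats, 2 months old, that drank water with fluoxetine at 18 mg/kg (FT) or water alone (Sham) for 6 weeks, and droplet single-cell RNA sequencing was run on punches of the dorsal (dorDG) or ventral (venDG) dentate gyrus. Each replicate pooled tissue of several animals, and there were 4 replicates of dorDG FT and 5 each of dorDG Sham, venDG FT and venDG Sham.

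Astrocytes clear glutamate from the synapse, convert it to glutamine and return it to neurons, and they share ions and metabolites through gap junctions. Water and potassium are moved at the endfeet that wrap blood vessels. In the hippocampus Gfap is also made by the radial glia-like stem cells of the dentate gyrus, so this gene alone does not separate a stem cell from an astrocyte.

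After the filters 3347 cells were used, 1289 from dorDG and 2058 from venDG, with 220162 to 1523537 UMIs (unique molecular identifiers, each standing for a captured mRNA molecule) and 42 to 384 cells per replicate. The labels describe nuclei, whereas by the methods both whole cells and nuclei were suspended, and no source links a reaction to either. In 1206 cells (36.03%) less than 2% of UMIs came from the 122 ribosomal protein genes, and these are called low-ribosomal cells here. Their share ran from 14.1% to 71.0% of a replicate and was lower in the dorDG FT than in the dorDG Sham replicates on average (mean 22.8% ± 13.2 SD over 4 replicates, against 50.4% ± 14.4 over 5), so the treatment comparisons in which a member was called are also given within the cells at 2% or more. The replicates of venDG Sham also differed from each other, since Sham 3 held 0 Astrocyte-like cells among 42 (at most 7.14% by counting error alone). Of all barcodes, 9 occurred in more than 1 reaction (18 cells).

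The deposited annotation gave 12 types to the dorDG cells, and the members were read above all in AstroSub1 (110 cells) and BergGlia (43 cells). AstroSub1 carried its label well: 10 of 12 astrocyte markers other than the 8 members were at least 2-fold higher than in the remaining dorDG cells and present in at least 10% of cells. It also passed for 3 of 5 Bergmann glia markers (Hopx, Timp4 and Fabp7) and 3 of 8 radial glia markers (Sox2, Hopx and Fabp7). The same held for 2 of 6 ependymal or choroid markers and 1 of 9 mural cell markers. BergGlia passed for 5 of those 12 astrocyte markers (among them Slc7a10, Mlc1 and Cldn10) and for 2 of 5 Bergmann glia markers (Hopx and Fabp7). It also passed for 3 of 8 radial glia markers (Sox2, Hopx and Fabp7). These markers did not tell it apart from AstroSub1, and it is used here as a label only. The label InhibNeuron passed for 6 of 9 granule cell markers and Mossy for 9 of 9 mural cell markers, the label Granule passed for 0 of 9 granule cell markers and 2 of 9 inhibitory neuron markers, and these names too are those of the annotation. No type annotation was used for venDG. The cells of both regions were therefore clustered together without the 8 members, and 3 clusters met the astrocyte marker rule (clusters 6, 8 and 23, together called Astrocyte-like). They held 142 dorDG and 236 venDG cells, among them 108 of the 110 AstroSub1 and 30 of the 43 BergGlia cells. Of the remaining BergGlia cells, 7 fell in cluster 30, which had the T cell genes TRBC2 and Cd3e among its top genes. At Leiden resolution 1, 7 BergGlia cells fell in a cluster named Microglia-like. Levels of BergGlia are therefore those of a mixed label.

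A set of 3 promoters is printed because their genes mark the ends of the range described further on: Slc1a2 was the single member that was not lower in low-ribosomal astrocytes, and Aldoc and Glul were the pair that was lowest there relative to other astrocytes. Each window runs from 250 bases before to 50 bases after an annotated RefSeq start site on GRCr8, plus strand, read 5′ to 3′ (chr3:109459859-109460158 for Slc1a2, chr10:63715294-63715593 for Aldoc and chr13:68519250-68519549 for Glul). Capitals mark a GC box (GGGCGG) and, in Glul, a CCAAT box read on the other strand (ATTGG).
Slc1a2: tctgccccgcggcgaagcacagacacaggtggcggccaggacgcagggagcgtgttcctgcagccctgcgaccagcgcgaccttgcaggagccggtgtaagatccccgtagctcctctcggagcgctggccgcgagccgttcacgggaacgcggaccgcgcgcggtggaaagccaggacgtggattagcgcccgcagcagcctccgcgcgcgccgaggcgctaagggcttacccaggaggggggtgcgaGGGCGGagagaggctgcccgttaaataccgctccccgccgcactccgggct
Aldoc: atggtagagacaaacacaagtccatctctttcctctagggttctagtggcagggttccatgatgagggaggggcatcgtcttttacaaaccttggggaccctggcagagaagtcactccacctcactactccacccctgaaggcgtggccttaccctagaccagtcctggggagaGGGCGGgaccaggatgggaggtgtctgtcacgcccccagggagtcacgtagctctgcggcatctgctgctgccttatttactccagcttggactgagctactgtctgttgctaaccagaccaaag
Glul: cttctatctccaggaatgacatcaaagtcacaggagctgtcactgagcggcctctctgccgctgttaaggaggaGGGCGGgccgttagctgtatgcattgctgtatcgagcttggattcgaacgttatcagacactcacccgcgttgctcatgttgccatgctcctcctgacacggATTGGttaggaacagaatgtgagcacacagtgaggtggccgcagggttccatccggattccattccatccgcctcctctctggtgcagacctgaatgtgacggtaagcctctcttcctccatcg

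All 8 members were matched by symbol to the RefSeq promoter table, in 13 windows, since some genes have several start sites. The Slc1a3 windows (from 59557738, 59557748 and 59557759) overlap almost in full, so the counts below hold the same stretch repeatedly. A GC box on either strand was present in 5 of the 13 windows, belonging to 4 members, against 33.1% of the 33469 windows in the table. A CCAAT box was present in 4 of the 13 windows (37.5% of all windows), a STAT-type TTCNNNGAA in 1, that of Ntsr2 (8.87%), and neither a TATA box (TATAAA, 14.2%) nor an NFI full site (0.0418%) in any of them. The Slc1a2 window shown was 71.0% G and C, against a median of 51.7% over all promoters, and the window of its other annotated start was 46.3% and held no GC box. The Aldoc window was 56.0% and the Glul window shown 54.7% G and C. The window of the other Glul start was 65.7%, with 2 GC boxes and 3 CCAAT boxes. These are letter matches in short windows and say nothing about factors that bind there.

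In all, 7 of the 8 members had their 2 highest levels in AstroSub1 and BergGlia among the 12 dorDG types, and Glul was the exception. Levels are given as UMIs of the gene per 10000 UMIs of all genes in the summed cells of a type, and the order of types is a description, with no test. Slc1a2 was found at 5.87 per 10000 in AstroSub1 and at 1.41 in BergGlia, and the next types were InhibNeuron at 0.739 and Granule at 0.633. The level was 4.17-fold higher in AstroSub1 than in BergGlia, and Slc1a2 was the single member whose replicate ranges in these 2 labels did not overlap. Few counts stand behind this: BergGlia held 7 Slc1a2 UMIs in 5 of 43 cells, and its 4 replicates held 0, 2, 0 and 1. Slc1a3 reached 29.98 in AstroSub1 and 17.7 in BergGlia, well apart from OPC at 3.10, the oligodendrocyte precursors. The replicate ranges of AstroSub1 and BergGlia overlapped for Slc1a3, and that of BergGlia did not overlap with that of OPC.

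Gja1 stood at 17.4 in AstroSub1, 7.24 in BergGlia and 0.516 in Endothelial, the highest of the remaining types. Aqp4 was nearly level between these labels over all their cells, at 10.6 and 10.2, and reached 0.424 in Mossy. Aldoc was likewise near level at 21.1 and 22.1, with OPC next at 3.28. The labels differ in their mix, with 69 low-ribosomal cells in AstroSub1 and 9 in BergGlia. In the other cells Aqp4 was at 16.6 in AstroSub1 and 9.43 in BergGlia, and Aldoc at 33.3 and 26.2. In the low-ribosomal cells Aqp4 was at 2.56 and 13.0, and Aldoc at 4.96 and 8.65. Gfap was at 31.9 in AstroSub1 and 40.2 in BergGlia, and the next type was Mossy at 1.89. Ntsr2 was at 2.16 and 1.61, followed by InhibNeuron at 0.158. For each of these 5 genes the AstroSub1 and BergGlia replicate ranges overlapped.

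Glul followed another order. It was highest in BergGlia (21.7 per 10000), then in the oligodendrocyte label Oligodend2 (15.2), and AstroSub1 (11.9) was level with Oligodend1 (11.8). Microglia1 (5.46), Microglia2 (5.38) and Endothelial (3.42) followed. The AstroSub1 level mixes both ribosomal classes: Glul was at 1.95 in its 69 low-ribosomal cells and at 19.5 in its other 41 cells. The levels of the oligodendrocyte labels were not split in this way, so the order holds for all cells of a label summed. Of all Glul UMIs in dorDG, 10.97% lay in AstroSub1, 29.4% in Oligodend2 and 22.7% in Oligodend1. By contrast AstroSub1 held 72.2% of the Gja1, 65.9% of the Aqp4, 55.8% of the Ntsr2, 54.8% of the Slc1a3, 47.5% of the Slc1a2, 46.9% of the Gfap and 45.4% of the Aldoc UMIs.

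**Figure D1:**
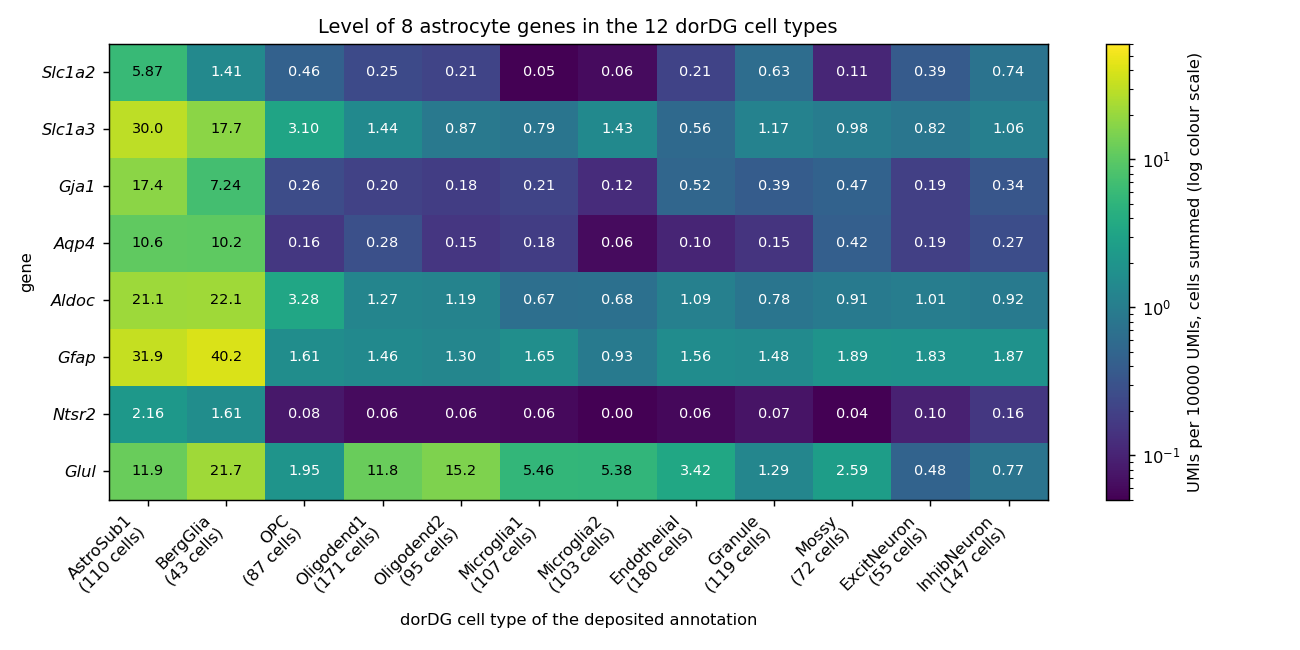
Level of each member (rows) in the 12 annotated dorDG types (columns), in UMIs per 10000 UMIs of the summed cells, with colour on a log scale and the level printed in each cell. AstroSub1 and BergGlia carry the highest levels of every member but Glul, which is at 15.2 in Oligodend2 and 11.9 in AstroSub1. Low-ribosomal and other cells of a type are summed together.

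The replicates of AstroSub1 spread widely. Over the 8 replicates with at least 5 such cells the level was 5.42 ± 1.96 (SD) for Slc1a2, 29.2 ± 10.2 for Slc1a3, 18.2 ± 7.24 for Gja1 and 10.8 ± 5.86 for Aqp4. It was 21.3 ± 8.29 for Aldoc, 28.6 ± 25.1 for Gfap, 2.45 ± 0.814 for Ntsr2 and 11.7 ± 5.77 for Glul. Gfap was the most variable member in proportion to its mean, with a lowest replicate of 4.07 and a highest of 85.8. In BergGlia, with 4 such replicates, Slc1a2 was at 0.727 ± 0.854 and Gfap at 37.4 ± 26.4.

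Most AstroSub1 cells showed several members at once. A cell held UMIs of a median of 6 of the 8 genes, 20 of 110 cells held all 8, and the 8 genes together made up 131 per 10000 UMIs. Gfap was detected in 90.9% of AstroSub1 cells, Slc1a3 in 89.1%, Slc1a2 in 76.4%, Aldoc in 69.1% and Gja1 in 65.5%. Aqp4 was detected in 55.5%, Glul in 50.9% and Ntsr2 in 35.5%. With each cell thinned to 1000 UMIs (98 cells, 12 shallower cells left out) these shares were 79.6% for Gfap, 80.6% for Slc1a3, 42.9% for Slc1a2, 39.8% for Aqp4 and 35.7% for Glul. In Microglia1, which should lack all members but Glul, the thinned shares were 17.3% for Gfap, 1.9% for Aqp4 and 0% for Slc1a2 (0 among 104 cells, at most 2.88%), at a median depth of 6669 UMIs per cell against 2317 in AstroSub1. The thinned share for Glul was 37.5% in Microglia1, so detection of Glul over all AstroSub1 cells did not set them apart from it. Within AstroSub1 that share was 14.0% in low-ribosomal cells and 65.9% in the other cells, and Microglia1 was not split. BergGlia cells were shallower (median 1025 UMIs), showed a median of 4 members, and no BergGlia cell showed all 8.

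The patterns of 7 members over the 12 types were alike, with Pearson r of 0.80 to 0.99 between their log2 levels, and r between Glul and the other members was 0.15 to 0.52. The points are 12 sums of cells from the same libraries, so these values describe the types and carry no p. By the same measure the gene most like Slc1a2 among 3763 genes was Rasa2 (r = 0.962), followed by Slc7a10 (0.959), an amino acid exchanger of astrocytes. Mlc1, a membrane protein of astrocyte endfeet, was most like Gja1 (0.978), Gfap was most like Aqp4 (0.989) and like Ntsr2 (0.984), and Gsta1 was most like Gfap (0.991). Tst was most like Slc1a3 (0.971) and Aldoc (0.985). For Glul the closest gene was Mid1ip1, with an r of 0.937.

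Within the astrocytes these genes differed between low-ribosomal and other cells of the same replicate. In 12 replicates with at least 5 Astrocyte-like cells of each class, Aldoc was at 7.34 ± 4.10 (SD) per 10000 in low-ribosomal cells and at 39.3 ± 6.91 in other cells, lower in 12 of 12 replicates. The lowest, median and highest replicate were 2.79, 6.04 and 14.8 against 28.6, 40.7 and 47.8, so the classes did not overlap. Glul was at 3.36 ± 4.11 against 20.9 ± 7.23 and was lower in 11 of 12, venDG FT 3 being the exception with 15.7 against 13.7. Aqp4 was at 4.38 ± 4.74 against 16.5 ± 5.52, lower in 12 of 12, and Gja1 at 6.98 ± 6.01 against 24.4 ± 6.29, lower in 11 of 12. The classes overlapped for Glul, Aqp4 and Gja1, and venDG FT 3 had the highest low-ribosomal value of each, with Aqp4 at 17.7.

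The remaining members differed less. Slc1a3 was at 19.6 ± 10.4 in low-ribosomal and 42.4 ± 6.98 in other astrocytes, lower in 11 of 12 replicates, and Gfap at 19.5 ± 12.7 and 34.2 ± 28.6, lower in 10 of 12. Ntsr2 was at 0.777 ± 0.736 and 2.73 ± 1.18, lower in 10 of 12. The classes overlapped for these 3 genes, and for Gfap the exceptions were dorDG Sham 1 (39.6 against 18.8) and dorDG Sham 4 (31.5 against 15.4).

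In edgeR's quasi-likelihood fit, blocked on replicate, with low-ribosomal against other cells, the log2 fold change was -3.42 (SE 0.29) for Glul, -3.07 (0.26) for Aldoc, -2.64 (0.28) for Aqp4 and -2.57 (0.26) for Gja1. Ntsr2 fell by 2.00 (0.41), Slc1a3 by 1.79 (0.24) and Gfap by 1.30 (0.25). These 7 members passed the call used throughout, an adjusted p not above 0.2 and a log2 fold change beyond 0.32 in size, and their edgeR adjusted p ran from 1.31e-29 for Glul to 6.12e-06 for Ntsr2. The background was high, since 70.4% of the 4248 genes tested were called, 34.3% as lower in low-ribosomal cells, and a count of 7 of 8 must be read against it. The median log2 fold change of all tested genes was 0.13, and 0.34 with median-ratio size factors, so the values of the members stand a little further below the typical gene than they stand below 0.

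Slc1a2 went the other way. It was at 7.41 ± 2.72 per 10000 in low-ribosomal and 3.78 ± 1.20 in other astrocytes, higher in 11 of 12 replicates, with 2.25, 6.93 and 11.1 as the lowest, median and highest replicate against 2.20, 3.66 and 5.83. The classes overlapped, and the exception was venDG FT 2, with 2.25 against 2.83. On the fitted scale the difference was 0.36 (SE 0.29, 95% interval -0.20 to 0.92, edgeR adjusted p = 0.279) and was not called, beside a median of 0.13 over all genes. With median-ratio size factors it was 0.59 and was called, and the median of all genes was higher there too. In all, 5 of the alternative fits called Slc1a2, as did 2 of the 12 fits that left out a replicate, each with a positive value. Of the 4248 genes tested, 1535 were called as higher in low-ribosomal cells, so a higher level there is not particular to Slc1a2. Slc1a2 was the sole member with a positive value in this fit.

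The summed level of the 8 genes differed between the classes too. In AstroSub1 the 69 low-ribosomal cells held the members at 59.7 per 10000 UMIs in sum and a median of 4 of the 8 genes per cell, whereas the other 41 cells held 184 per 10000 and a median of 7 genes. All 20 cells with every member detected were among those 41. Low-ribosomal AstroSub1 cells had 8.04 per 10000 of Slc1a2 and 14.0 of Slc1a3, and their median depth was 1562 UMIs.

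**Figure D2:**
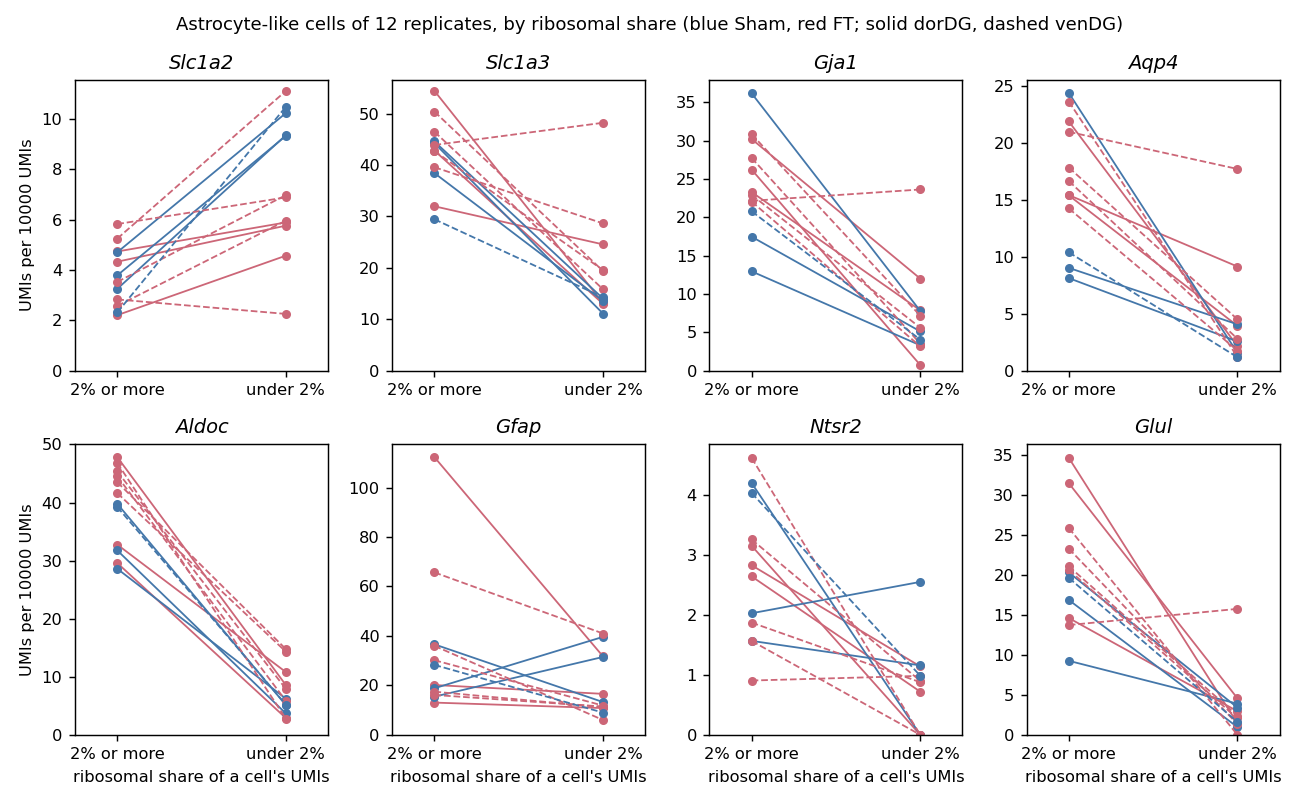
Level of each member in low-ribosomal and other Astrocyte-like cells of the same replicate, in UMIs per 10000 on a linear axis that starts at 0, with a line for each of 12 replicates (blue Sham, red FT, solid dorDG, dashed venDG). Aldoc and Aqp4 are lower in the low-ribosomal cells of 12 of 12 replicates, and Slc1a2 is higher there in 11 of 12.

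The 3 Astrocyte-like clusters differed along the same line. Cluster 6 (181 cells, 94.5% of them low-ribosomal) had Slc1a2 at 8.39 and Aldoc at 4.87 per 10000, cluster 8 (149 cells, 10.1%) had them at 4.19 and 39.6, and cluster 23 (48 cells, 0%) at 1.22 and 38.4. Glul was at 1.73, 20.2 and 28.0 in clusters 6, 8 and 23, Slc1a3 at 14.3, 45.5 and 23.8, and Aqp4 at 1.81, 18.2 and 12.9. Cluster 23 thus had the high Aldoc and Glul of cluster 8 with the lowest Slc1a2, a level that rests on 7 UMIs. Its cells were shallow (median 1057.5 UMIs, 0.339 of the median of their own replicates). The values are a description of the clusters, with no test.

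The comparison of FT with Sham in AstroSub1 asks whether the treatment moved these genes in dorsal astrocytes, and no member passed the test. Glul was at 10.4, 18.2, 9.49 and 22.4 per 10000 in the 4 FT replicates and at 6.08, 7.46, 12.4 and 7.16 in the 4 Sham replicates with at least 5 AstroSub1 cells. The FT values lay mostly above, and Sham 4 at 12.4 overlapped with them. The log2 fold change was 1.03 (SE 0.40, 95% interval 0.23 to 1.82) with an edgeR adjusted p of 0.733. The annotation gave 3 AstroSub1 cells to dorDG Sham 3, and this replicate was not in the fit.

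Gfap was at 32.5, 85.8, 12.4 and 17.4 in FT and at 28.8, 4.07, 17.3 and 30.3 in Sham. FT 2 was far above all others and the groups otherwise overlapped, and the log2 fold change of 0.95 (SE 0.44) had an edgeR adjusted p of 0.779. Aqp4 was at 15.1, 15.7, 11.9 and 11.1 in FT and at 5.19, 2.71, 5.26 and 19.1 in Sham. In Sham, 3 replicates lay below every FT replicate and Sham 5 above them all, with a log2 fold change of 0.82 (SE 0.42, 95% interval -0.01 to 1.65, edgeR adjusted p = 0.803).

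Gja1 was at 21.5, 20.3, 19.9 and 25.0 in FT against 6.97, 10.2, 13.9 and 27.9 in Sham, the same arrangement as Aqp4, since Sham 5 was again the highest. Its log2 fold change was 0.68 (SE 0.39), and that of Aldoc was 0.55 (0.39). Slc1a2 pointed down, at 4.42, 5.17, 5.34 and 3.04 in FT against 9.63, 4.07, 5.57 and 6.13 in Sham, with overlap and a log2 fold change of -0.47 (SE 0.41, 95% interval -1.29 to 0.34). Slc1a3 was at 0.26 (0.38) and Ntsr2 at -0.01 (0.50) on the log2 scale.

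Over all genes in AstroSub1, 1 of 4304 was called (0.0232%), and 263 had an unadjusted p under 0.05. The 95% intervals of the 8 members spanned -1.29 to 1.82 in all. Beside these values, low-ribosomal cells made up 45.5% to 56.2% of AstroSub1 cells in the FT replicates and 84.0%, 80.0%, 66.7% and 46.2% in Sham. Sham 5, which was highest for Aqp4 and Gja1, thus had the lowest share among Sham. Without Sham 5, Aqp4 was called, at 1.64 on the log2 scale (edgeR adjusted p = 0.167). Within low-ribosomal AstroSub1 cells alone, the log2 fold change of Gfap was -0.55 and that of Aqp4 was -0.28, of the opposite sign. Over that and the other alternative fits, the lowest value was 0.604 for Glul, 0.619 for Gja1, 0.502 for Aldoc and 0.034 for Slc1a3. No member was called in any of these fits. The median depth per AstroSub1 cell was 2305 to 3420 UMIs in FT and 1460 to 2300 in Sham, without overlap. The summed endothelial markers were at 1.89 to 2.96 per 10000 in FT and 0 to 1.33 in Sham. The part of the low-ribosomal share, of depth and of these markers in the result was not tested. In BergGlia only 2 replicates a group had 5 cells, so no fit was made.

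**Figure D3:**
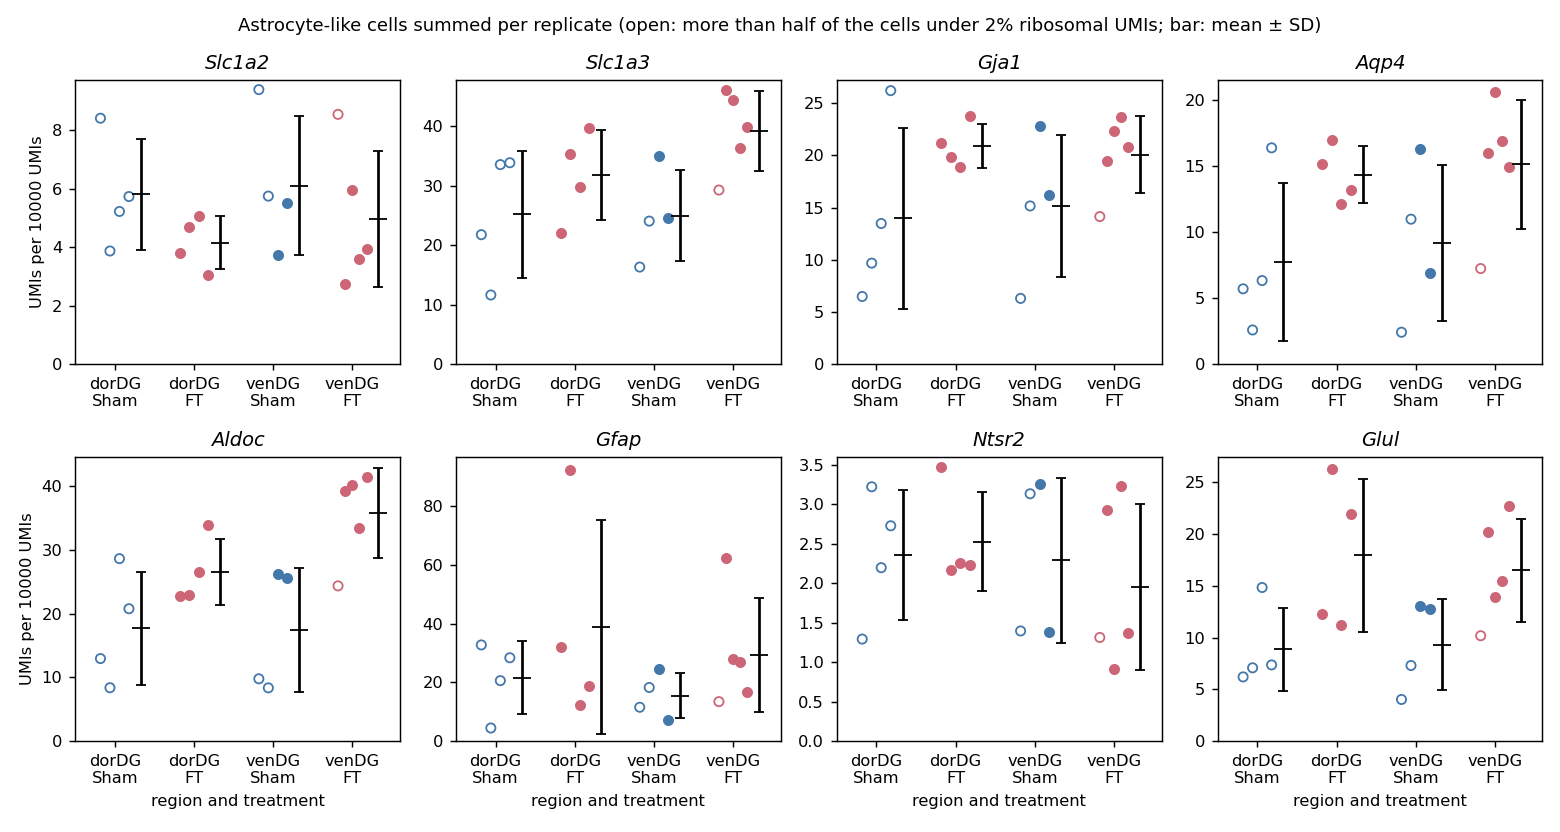
Level of each member in the Astrocyte-like cells of every replicate, in UMIs per 10000, by region and treatment, with a bar at the group mean. Open points mark replicates in which over 50% of these cells were low-ribosomal, and Aldoc in venDG is at 24.3 to 41.4 in FT and at 8.36 to 26.1 in Sham.

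In venDG the same question was asked of the Astrocyte-like cells, with 5 FT replicates and 4 Sham replicates, and 3 of the 8 members rose: Aldoc, Gfap and Glul. Over all genes, 9.22% of 4015 were called, 3.86% as higher in FT. Aldoc was at 24.3, 39.2, 40.2, 33.4 and 41.4 in FT and at 9.78, 8.36, 26.1 and 25.6 in Sham. Only FT 1, at 24.3, lay below the upper Sham values. The log2 fold change was 1.21 (SE 0.40, edgeR adjusted p = 0.126).

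Gfap was at 13.5, 62.3, 28.0, 26.9 and 16.7 in FT and at 11.6, 18.3, 24.7 and 7.26 in Sham, a log2 fold change of 1.14 (SE 0.43, edgeR adjusted p = 0.174) with overlapping groups. FT 2 was the highest replicate for Gfap in venDG. Glul was at 10.2, 20.2, 14.0, 15.4 and 22.7 against 4.04, 7.32, 13.1 and 12.8, a log2 fold change of 1.02 (SE 0.42, edgeR adjusted p = 0.195), and FT 1 was the single FT replicate below a Sham replicate. The calls rested on single replicates. None of the 3 genes was called without any one of FT 2, FT 3, FT 5, Sham 1 or Sham 2, with Aldoc then at 0.99 to 1.18, while 5 members were called without Sham 4 and 6 without FT 1. Without FT 2, Gfap was at 0.61, and without Sham 5 it was not called. Glul was also not called with median-ratio size factors (0.99 on the log2 scale) or with no filter on low counts (1.38).

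The remaining members were not called. Slc1a3 was at 29.3, 46.1, 44.4, 36.3 and 39.9 in FT and at 16.3, 24.04, 35.0 and 24.5 in Sham, a log2 fold change of 0.82 (SE 0.38, 95% interval 0.07 to 1.57) with an edgeR adjusted p of 0.234. The groups overlapped through FT 1 and the Sham replicate at 35.0. Aqp4 was at 0.97 (SE 0.44, edgeR adjusted p = 0.234), Gja1 at 0.59 (0.40) and Ntsr2 at 0.03 (0.48) on the log2 scale. Slc1a2 was at 8.55, 2.75, 5.95, 3.59 and 3.95 in FT against 9.39, 5.75, 3.73 and 5.53 in Sham, with a log2 fold change of -0.25 (SE 0.43, 95% interval -1.11 to 0.61) and full overlap. Slc1a2 was thus the member at -0.47 in dorDG and -0.25 in venDG, each with an interval that holds 0, and the venDG value turned to 0.13 without Sham 1.

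The share of low-ribosomal cells averaged 36.2% over the venDG FT and 61.5% over the venDG Sham replicates, with overlap. It was 67.9%, 27.7%, 18.2%, 41.2% and 26.3% in the venDG FT and 88.6%, 72.7%, 40.0% and 44.4% in the venDG Sham replicates. FT 1, the FT replicate with the lowest Aldoc, had the highest share among FT. The lowest Gfap, 7.26, was in Sham 5, with a share of 44.4%. The part of this share in the result was not tested. Cluster 6 held 34.0% of the venDG FT and 73.0% of the venDG Sham Astrocyte-like cells, and cluster 8 most of the rest. Within the cells at 2% or more ribosomal UMIs, with 5 FT and 3 Sham replicates, no member was called and 5 genes were called in all. Aldoc was then at 0.42, Glul at 0.31, Gfap at 0.80, Slc1a3 at 0.57 and Slc1a2 at 0.49 on the log2 scale. In those cells Aldoc was at 41.6 to 46.8 per 10000 in FT and at 33.5 to 39.2 in Sham, a difference that was not called. How many of all genes separate the groups in this way was not counted. Summed oligodendrocyte markers in the same sums were at 18.1 to 33.2 in FT and 36.8 to 90.4 in Sham, summed excitatory neuron markers at 0.82 to 1.44 and 1.57 to 3.88. The median mitochondrial share per cell averaged 8.96% ± 3.02 (SD) in FT and 5.07% ± 2.07 in Sham, and the part of these values in the result was not tested.

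**Figure D4:**
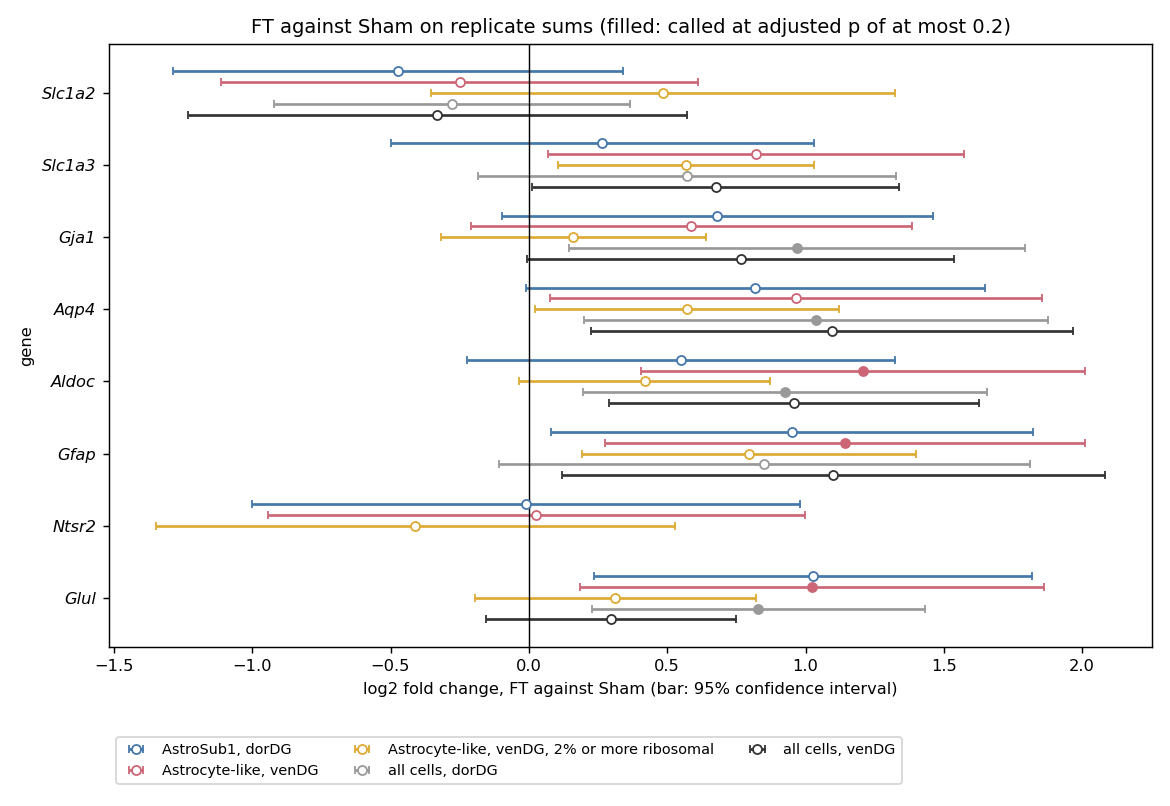
Log2 fold change of each member with its 95% interval from edgeR, for FT against Sham in AstroSub1, in venDG Astrocyte-like cells, in those at 2% or more ribosomal UMIs, and over all cells of each region, with called values filled. Aldoc (1.21), Gfap (1.14) and Glul (1.02) are called in venDG astrocytes and are lower and not called within the cells at 2% or more ribosomal UMIs.

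No member passed the test between regions. In the Astrocyte-like cells the log2 fold change of dorDG against venDG lay between -0.26 for Aldoc and 0.42 for Gfap, every 95% interval lay within -0.82 and 1.09, and the edgeR adjusted p was 0.999 for all 8. Over all genes, 3 of 4084 were called (0.0735%) and 140 had an unadjusted p under 0.05. The test of whether the treatment difference itself differed between regions called none of the 8 and none of the 4084 genes (134 with an unadjusted p under 0.05, 0 called by DESeq2). Its standard errors were 0.52 to 0.68 on the log2 scale, so the call of 3 members in venDG and none in dorDG does not show that the regions responded differently.

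Over all cells of a replicate the members follow both the number of astrocytes and their RNA, and fewer cells of a type cannot be told apart there from less RNA per cell. In dorDG 4 of the 7 members tested rose with FT, against 28.6% of 4274 genes called and 12.4% called as higher. Glul was at 5.21, 6.74, 8.25 and 8.02 per 10000 in FT and at 4.93, 5.44, 3.08, 3.62 and 3.65 in Sham, a log2 fold change of 0.83 (SE 0.28, edgeR adjusted p = 0.164). FT 1 alone lay below a Sham replicate. Aldoc was at 0.93 (SE 0.34, edgeR adjusted p = 0.168), Aqp4 at 1.04 (0.39, 0.170) and Gja1 at 0.97 (0.38, 0.172). None was called within cells at 2% or more ribosomal UMIs, where edgeR called no gene (92 with an unadjusted p under 0.05). None was called either without FT 4, FT 5, Sham 1, Sham 3 or Sham 5, and 2 were without FT 2. With the number of reactions as a term edgeR called no gene (1019 with an unadjusted p under 0.05). With a replicate block it also called none (891 such genes), and with no filter on low counts it called no member. The median mitochondrial share per cell was 5.17% to 6.02% in the FT and 2.76% to 5.02% in the Sham replicates, with no overlap, and its part in the result was not tested. In venDG no gene was called over all cells by edgeR (237 of 4079 with an unadjusted p under 0.05, 18 called by DESeq2), and the members had an adjusted p of at least 0.763, with Gfap and Aqp4 both at 1.10 on the log2 scale. Within cells at 2% or more ribosomal UMIs edgeR again called no gene there (191 with an unadjusted p under 0.05).

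The share of Astrocyte-like cells themselves of dorDG averaged 11.5% ± 2.99 (SD) over 4 FT and 10.1% ± 5.44 over 5 Sham replicates, a difference of 1.43 percentage points (two-sided exact permutation test, p = 0.667, 0.667 after adjustment for both regions). The venDG shares averaged 12.9% ± 3.43 for FT and 7.95% ± 6.26 for Sham (n = 5 each), a difference of 4.95 points (two-sided exact permutation test, p = 0.159, adjusted 0.317). The ranges overlapped in both regions. The venDG difference was 2.96 points without Sham 3 and 8.21 points within cells at 2% or more ribosomal UMIs (two-sided exact permutation test, p = 0.0556, adjusted 0.111).

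Outside the astrocytes, Glul rose with FT in Oligodend1. It was at 10.4, 18.2, 18.8 and 13.8 per 10000 in FT and at 12.4, 5.88, 10.0, 3.62 and 6.83 in Sham, and FT 1 lay below Sham 1. The log2 fold change was 1.02 (SE 0.29, edgeR adjusted p = 0.138), against 5.98% of 3693 genes called in that type and 3.14% called as higher. Low-ribosomal cells made up 7.14% to 52.0% of Oligodend1 cells in FT and 41.7% to 73.9% in Sham. The median depth per cell averaged 4681 UMIs ± 822 (SD) in FT and 2249 ± 1274 in Sham and the median mitochondrial share 6.94% ± 0.861 and 4.22% ± 1.75, and their part in the result was not tested. Within cells at 2% or more ribosomal UMIs edgeR called no gene (133 with an unadjusted p under 0.05). Glul was also not called without FT 1, FT 4, FT 5, Sham 2 or Sham 3, with an edgeR adjusted p of 0.203 to 0.364. In Oligodend2, where Glul stood highest among non-astrocyte types, its log2 fold change was 0.51 (SE 0.25, edgeR adjusted p = 0.999), and 1 of 3447 genes was called (0.029%). In Endothelial, Granule, Microglia1, Mossy and OPC edgeR called no gene (76 to 333 genes per type with an unadjusted p under 0.05), and in Microglia2 2 of 3441 genes were called (0.0581%), neither of them a member. The members there lay between -1.39 (SE 0.68) for Slc1a3 in Mossy and 1.66 (SE 0.60) for Gfap in OPC, with edgeR adjusted p of 0.998 and 0.931.

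The wider pathways around the members showed how far they moved with other genes of their kind. In venDG astrocytes 2 of 18 tested genes of glycolysis and lactate handling rose with FT, Pgam1 by 1.99 and Gpi by 1.27 on the log2 scale, both glycolytic enzymes like Aldoc. Over all genes 3.86% were called higher and the median was -0.10. Of those 18 genes 17 had a value above 0, with a median of 0.73. Calls over all genes fell to 5 within cells at 2% or more ribosomal UMIs and to 1 without Sham 1. Il33 (2.38) and the small heat shock gene Cryab (1.63) rose among 5 filament and reactive genes. The metallothioneins Mt1 (1.84) and Mt2A (1.75) and Mfge8 (1.30) rose too, and the syntrophin Sntb1 fell (-1.90). In AstroSub1 and between the regions no gene of these lists was called.

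Between the ribosomal classes the lists split. Of 18 glycolysis genes, 14 were lower in low-ribosomal astrocytes and none was higher, led by Gapdh (-3.43), Eno1 (-2.86) and Ldhb (-2.70). The gap junction gene Gjb6 (connexin 30) fell by 2.26, close to Gja1. Among 9 glutamate genes 4 were lower, such as Glud1 (-1.53), and 2 were higher, the glutamate receptor Grm5 (1.98) and the exchanger Slc7a10 (0.57), which was also among the genes most like Slc1a2 over types. Among 12 water and potassium genes 3 were lower, among them Mlc1 (-2.68), and 6 were higher, led by Sntb1 (1.84). Of 24 other astrocyte genes 18 were lower, led by Mt3 (-3.98) and Cst3 (-2.94), and 3 were higher. Over all genes 70.4% were called in this comparison, 34.3% as lower. The 14 of 18 glycolysis genes and 18 of 24 other astrocyte genes stand above that 34.3%. The 4 of 9 glutamate genes lie closer to it, and the 3 of 12 water and potassium genes lie below it. These counts describe the lists, and no list was tested as a set.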

How the data were processed

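The labels list 108 libraries, which came from 27 reactions and formed 19 replicates (8 with 2 reactions, 11 with 1). Per the submitters' processing notes the authors used Cell Ranger 2.1.0, Seurat 3 and the rn5 build, filtered cells, and deposited counts of UMIs per gene and cell, not normalized, with an annotation of the dorDG cells. Of 2228 venDG columns, 170 with an unexplained second suffix (167 repeating a barcode) were left out. No doublet caller was run here.

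Sums of UMI counts were formed for each replicate and cell set, leaving out replicates with fewer than 5 cells of a set, and the genes that averaged 0.5 UMIs per 10000 or more entered edgeR 4.0.16 (quasi-likelihood, TMM scaling, Benjamini-Hochberg over all genes tested). A call needed an adjusted p not above 0.2 and a log2 fold change beyond 0.32 in size. The 12 author types were used for dorDG, and joint clusters (scanpy 1.11.5, 30 components, 2000 variable genes without the members, Leiden resolution 2) for both regions. The fitting steps were tested on simulated data. DESeq2 1.42.0, median-ratio size factors, no filter, a replicate block, a reaction-count term, ribosomal classes and leaving out each replicate were the alternatives, and the low-ribosomal fits of AstroSub1 and of the regions were added after seeing the data.

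The members, the pathway lists and the tests were chosen with earlier results of these data known. Named list genes were those called in a fit, at most 3 per list and fit, largest change first, with Slc7a10 named after its value was seen. Some genes of these lists are not reported here. Replicates pool animals, and p-values measure the spread between such pools. Counts of UMIs set the precision: a level of 3 UMIs in AstroSub1 is 0.0968 per 10000. RefSeq promoters were read by symbol from GRCr8, and no coordinate was converted.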

Additional observations from a re-analysis of the deposited data

Results flagged for a closer look

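In 80 groups of 4 or 5 replicates the highest and lowest value were compared with the rest, and 5 replicates lay far from the others of their group. Chance alone marks about 1 in 20 such groups. Aqp4 in AstroSub1 of dorDG Sham 5 was at 19.1 UMIs per 10000, and the nearest of the other 3 Sham replicates was at 5.26. Ntsr2 in the Astrocyte-like cells of dorDG FT 1 was at 3.47, against 2.25 in the nearest FT replicate. Glul in the Astrocyte-like cells of dorDG Sham 4 was at 14.8, against 7.37. Over all cells, Gfap in venDG FT 2 was at 9.1, against 2.15, and Aqp4 in venDG Sham 5 was at 1.5, against 0.551. The cause of these values was not tested.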

How the results depend on the processing

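Of the counts of called members, the one in venDG Astrocyte-like cells (3) became 5 with a replicate block, 4 with DESeq2, 2 with median-ratio factors, 2 with no filter and 0 within cells at 2% or more ribosomal UMIs. The count over all dorDG cells (4) became 0 with no filter on low counts, with a replicate block, with reaction count as a term and within cells at 2% or more ribosomal UMIs, and the count in the other dorDG types (1) became 0 within those cells. Without 1 replicate the counts were 0 to 1 in AstroSub1, 0 to 6 in venDG astrocytes, 0 to 4 over all dorDG cells and 0 to 1 in the other types, and the difference in astrocyte share was -0.0995 to 2.56 points in dorDG and 2.96 to 6.77 in venDG. The cause was not tested. Genes called in venDG astrocytes went from 370 to 181 with DESeq2, 76 with no filter, 5 at 2% or more ribosomal UMIs, 1 without venDG Sham 1 and 1656 without venDG FT 1, and over all dorDG cells from 1221 to 1849 with DESeq2, 207 with no filter, 0 with the replicate block, 0 with the reaction-count term and 0 without FT 4, FT 5, Sham 3 or Sham 5.

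The replicate numbers were not treated as pairs: the deviations of same-numbered replicates correlated by -0.02 to 0.05 in AstroSub1, 0.01 to 0.51 in venDG astrocytes and -0.22 to 0.37 over all dorDG cells. Over all venDG cells the range was -0.14 to 0.27, and between regions in Astrocyte-like cells -0.02 to 0.32. The study's methods for pooled tissue state that matching Sham and FT samples were handled side by side. These correlations do not show that same-numbered replicates were unpaired. With the block 0 members were called in AstroSub1, over all venDG cells, between regions and for the interaction, and without it 8 were called in the ribosomal comparison. Under the block the log2 fold change between regions was 0.021 for Glul and 0.033 for Aqp4.

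Signs turned for values that were not called before or after. Ntsr2 in AstroSub1 was 0.0011 with no filter and 0.00084 with the reaction-count term, and Gfap (-0.55) and Aqp4 (-0.28) turned in low-ribosomal cells. In venDG astrocytes Ntsr2 was -0.034 with DESeq2, -0.0092 with median-ratio factors and -0.41 at 2% or more ribosomal UMIs, where Slc1a2 was 0.49. Between regions, at 2% or more ribosomal UMIs, Slc1a3 was 0.018, Slc1a2 0.024 and Ntsr2 -0.053. Ntsr2 was -0.20 in low-ribosomal cells, and Glul was 0.010 with DESeq2 and with median-ratio factors and 0.028 with the reaction-count term. Without 1 replicate, Slc1a3 in AstroSub1 was -0.022 to 0.45 and Ntsr2 -0.32 to 0.21. Slc1a2 was -0.42 to 0.13 and Ntsr2 -0.32 to 0.31 in venDG astrocytes, and Slc1a2 was -0.44 to 0.062 over all dorDG cells and -0.58 to 0.28 over all venDG cells. Between regions Glul was -0.20 to 0.084, Gfap -0.056 to 0.70, Aqp4 -0.48 to 0.060 and Gja1 -0.35 to 0.046. Fits of BergGlia, ExcitNeuron and InhibNeuron, of AstroSub1, Granule, OPC and Oligodend2 at 2% or more ribosomal UMIs and of low-ribosomal venDG astrocytes were not run, since too few replicates had 5 cells.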
